A study of Homo sapiens with 18 samples.

Results

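The S100 proteins S100A6, S100A10, S100A11, S100A4 and S100A13 and the annexins ANXA1, ANXA2 and ANXA5 were followed through repeated washing and a second staining of microarrays. Their probe sets were chosen as those whose only gene symbol in the annotation of the array is 1 of these 8 genes, which gave 15 of 54675 probe sets for 8 of 19775 genes. S100A6 has in addition been selected on its measured signals on the scans B4, B5 and B8, so that its values on these scans are given as a description without a test. All arrays carried aliquots of 1 RNA sample from untreated cells of FTC-133, an established human follicular thyroid carcinoma line, and no cell type or treatment was compared. In the second series, which followed a second staining (re-labelling), array A was scanned after a total of 17, 19, 24 and 34 stringent washing cycles (A5 to A8), array B after 21, 23, 28 and 38 cycles (B5 to B8) and array C after 12 cycles (C2). The first series consists of A1 to A4 with 0, 2, 7 and 17 cycles, B1 to B4 with 2, 4, 9 and 19 cycles, and C1 with 6 cycles. Array B received 2 of its cycles before each staining, array C received 6 before each staining, and all cycles of array A came after staining. The 18 scans thus stem from 3 hybridizations, and every p-value below measures the spread between scans of these arrays and not between cultures.

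Most S100 proteins are small calcium sensors with a pair of EF hands and work as dimers. Many of the S100 genes lie close together on human chromosome 1. Annexins bind negatively charged phospholipids of membranes when calcium is present. Several members form complexes with each other or with other proteins. A dimer of S100A10 joins ANXA2 molecules, and S100A11 binds the amino-terminal tail of ANXA1. S100A6 and S100A4 bind other partners such as CACYBP and the myosin heavy chain MYH9. Both families are abundantly expressed in many adherent carcinoma lines.

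The values are MAS5 signals scaled scan by scan to the same trimmed mean (250.02 to 250.06 after trimming 2% at either end), so a loss shared by all probe sets is not visible and a higher signal means higher relative to the other probe sets of the scan. Over 17 additional cycles the median log2 change of all probe sets was -0.24 in the second series and -0.45 in the first. Each probe set has its own affinity, so the brightness of different probe sets is a property of the scan and does not rank their transcripts. The authors report that in the second series a small fraction of probes reached the limit of the scanner. They also report that washing took specific targets off mismatch probes more than off perfect match probes. The part of either effect in the changes below was not tested. Of the marker genes, 1 of 4 epithelial genes (KRT18), 1 of 4 mesenchymal genes (VIM) and 0 of 6 thyroid genes reached the brightest 10% of probe sets on C1 with their brightest probe set. KRT18 gave 1408 there, and KRT8, EPCAM and CDH1 gave 514, 214 and 32.3. VIM gave 18362, and COL1A1, LUM and DCN gave 347, 61.9 and 55.4. Of the thyroid transcription factors, NKX2-1 and PAX8 gave 766 and 757, and FOXE1 gave 39.9. The other thyroid genes SLC5A5, TG and TSHR gave 87.7, 40.7 and 38.9. FOXE1, TG and TSHR thus lay below the median signal of C1 (51.0). None of the leukocyte, endothelial and hepatocyte genes of the list reached the brightest 10%.

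Of the 15 probe sets, 10 belong to the brightest 10% on C1, the standard protocol (signal of 822 and above), with at least 1 for each of the 8 genes. The dimmest of these gave 2601 on C1, and the brightest of the other 5 gave 388.

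S100A6 was lower in the second series at all 9 matched steps of its probe set 217728_at. On array A it gave 1422, 7396, 17882 and 20565 in A5 to A8, against 12297, 18078, 25107 and 31412 in A1 to A4. On array B it gave 961, 1889, 11819 and 4188 in B5 to B8, against 17188, 26005, 33348 and 43394 in B1 to B4. On array C it gave 7597 in C2 and 22561 in C1. All 4 second-series scans of array B lay below its 4 first-series scans, whereas on array A the scans A7 and A8 overlapped the first series.

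**Figure D1:**
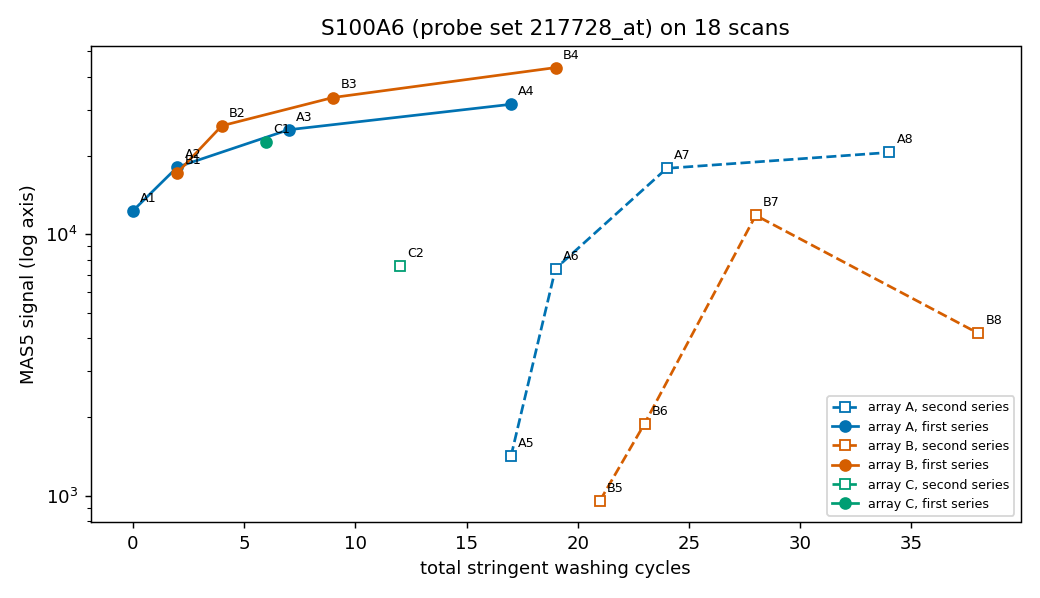
S100A6 signal (probe set 217728_at, log axis) against the total number of stringent washing cycles, with open squares and dashed lines for the second series, filled circles and solid lines for the first series, and 1 colour per array. B4 holds the highest value (43394) and B5 the lowest (961), and B8 (4188) lies below B7 (11819).

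The scans B4, B5 and B8 span the range of this probe set. B4 was its highest value of all 18 scans and B5 its lowest, a ratio of 45.2. Within the scans, S100A6 ranked 28 of 54675 on B4, 4540 on B5 and 1506 on B8. In multiples of the scan median this was 810.3 on B4, 15.2 on B5 and 78.9 on B8. Across the second staining of array B, from B4 to B5, the log2 change was -5.50, and 5 of the 5467 probe sets of the brightest 10% had a change as low or lower, S100A6 included. The median log2 change over that 10% was -0.17 and over the 100 brightest probe sets -1.45.

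S100A6 was also lower after the second staining of array A, although A4 and A5 had the same total of 17 cycles and differ by the second staining. The signal was 1422 on A5 and 31412 on A4, a log2 change of -4.47 against -1.15 for the median of the 100 brightest probe sets. On array C, which was washed under the standard protocol before each staining, C2 over C1 was 0.337. Of the 100 probe sets brightest on C1, 2 were at 0.5 or less of the matched first scan on all of A5, B5 and C2: S100A6 and probe set 221798_x_at, for which the annotation gives no gene symbol. Over all probe sets this held for 641 (1.17%). B5 is among the scans that S100A6 was selected on, and the 100 were picked as high on C1. The place of S100A6 among these probe sets thus follows in part from the selection.

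Under the washing of the second series the S100A6 signal was higher again. On array A the signal was 14.5 times as high on A8 as on A5, and 3 probe sets of the brightest 10% had a ratio as high or higher, S100A6 included. On array B it was 6.26 times as high on B7 as on B6 but then 0.354 times as high on B8 as on B7. At this last step 4 probe sets of the brightest 10% had a ratio as low or lower, S100A6 included, while the other 9 bright S100 and annexin probe sets had log2 differences of -0.12 to 0.14. On array A the S100A6 signal was not lower on A8 than on A7 (ratio 1.15).

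In the first series S100A6 moved with the bright end of the scans. A4 over A1 was 2.55, and the log2 change was 1.35 for S100A6 against 1.37 for the median of the 100 brightest probe sets. Its rank stayed between 9 and 12 on A1 to A4 and between 28 and 38 on B1 to B4.

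The remaining scans of array B share its hybridization, so fits without the scans that selected S100A6 still depend in part on that selection. S100A6 was tested only in such fits, which leaves 7 pairs for re-labelling. There the log2 change, second over first series, was -1.76 (SE 0.42, all 7 pairs lower, adjusted p = 0.153, limma). By this rule 0% of all probe sets were called higher and 0% lower, although 3196 upward and 5090 downward changes had an unadjusted p below 0.05. With a variance trend and robust moderation the adjusted p was 0.0508, where 0.064% of all probe sets were called lower. These 7 pairs are repeated scans of 3 arrays and not 7 replicates. With the array as the unit, 0% of all probe sets were called in limma. The change over 17 cycles was 3.85 in the second series (adjusted p = 0.451) and 1.35 in the first (adjusted p = 0.321). In these fits the 17-cycle step was measured on array A alone (A8 and A4), as was the first step of the second series (A5), so that the spread came from the steps with scans of both arrays, with 1 residual degree of freedom in the second series, 2 in the first and 3 for their difference. With the variance trend the adjusted p of the first-series change was 2.49e-07, where 3.12% of all probe sets were called higher. The change was larger in the second series by 2.51 on the log2 scale (adjusted p = 0.765 in limma), and with the variance trend this difference had an adjusted p of 0.0291, where 0.0183% of all probe sets were called higher. The first-series change was -0.022 on scans anchored on the 100 brightest probe sets.

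The 5 genes named below followed S100A6 most closely over the 18 scans by the correlation of log2 signals, members not counted. They were HUWE1, a ubiquitin ligase (r = 0.882), FTH1P5, a pseudogene of ferritin heavy chain (r = 0.841), ACTB, cytoplasmic actin (r = 0.833), the mitochondrially encoded ATP6 (r = 0.833) and LRRC3B (r = 0.820). The first of these, HUWE1, gave 71.4, 414, 6184 and 804 on B5 to B8, against 9193, 14801, 20919 and 29048 on B1 to B4. FTH1P5 gave 20983 on B8 and 19557 on B7. LRRC3B was dim, with 38.5 on C1 against a median signal of 51.0 on that scan. Of the 5 probe sets, 4 carry the suffix x or s, which Affymetrix gives where probes can match several transcripts. The coefficients rest in part on B4, B5 and B8, so likeness to S100A6 on these scans follows from how the genes were picked. Over the other 15 scans they were 0.794 for HUWE1 and 0.804 to 0.867 for the remaining 4. These 15 scans also entered the choice of the genes, so high values there follow from it as well. The points share 3 arrays and the scaling of the scans, and the coefficients are a description.

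In the first series, with a further scan after each washing step, the other 9 bright probe sets all had fitted changes above 0. Over 17 additional cycles these log2 changes ranged from 0.37 for S100A11 to 1.41 for S100A10 with a median of 1.29. The median was -0.45 over all probe sets and 0.41 over the brightest 10%, of which 80.9% had a change above 0. The direction depends on the scaling: 8 of the 9 changes were below 0 when the scans were anchored on the 100 brightest probe sets and 6 after quantile normalization. None of the 13 probe sets other than those of S100A6 passed an adjusted p of 0.05 in limma, as 0% of all probe sets did, while 7 of them were higher at an unadjusted p under 0.05, against 3.50% of all. With a variance trend and robust moderation 8 of 13 were called higher, against 3.57% of all probe sets.

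S100A10, the partner of ANXA2, gave 8111, 12857, 18363 and 23036 on A1 to A4 and 15955, 24327, 32520 and 39932 on B1 to B4. Each step was higher than the one before on both arrays, and B lay above A at every step. The fitted change was 1.41 (SE 0.26, adjusted p = 0.192 in limma, and 8.56e-09 with the variance trend). ANXA2, which organises membrane and actin contacts, behaved alike in its 3 bright probe sets, with changes of 1.34, 1.33 and 1.33 (SE 0.26 each). Its probe set 201590_x_at gave 8105, 12307, 16729 and 20830 on A1 to A4 and 13043, 19664, 25821 and 32725 on B1 to B4, again without a step downwards.

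S100A4, a metastasis-associated S100 protein that binds MYH9, gave 7004, 10565, 12840 and 15609 on A1 to A4 and 12505, 18777, 24313 and 29759 on B1 to B4. ANXA1, a glucocorticoid-regulated annexin, gave 5641, 8529, 11106 and 13289 on A1 to A4 and 9418, 13015, 16446 and 19269 on B1 to B4. ANXA5, whose binding to phosphatidylserine is used to stain apoptotic cells, gave 4902, 7363, 10100 and 12243 on A1 to A4 and 6787, 10099, 13239 and 16150 on B1 to B4. All 3 were higher at each further step on both arrays, and their last scan was 2.05 to 2.50 times as high as their first.

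S100A13, which takes part in the release of FGF1 from cells, differed between the arrays. It gave 917, 1468, 1979 and 2406 on A1 to A4 and 1899, 2446, 2271 and 2497 on B1 to B4, so that the last scan was 2.62 times the first for array A but 1.32 times for array B. S100A11 gave 1164, 1721, 2316 and 2049 on A1 to A4 and 5637, 6063, 5786 and 5313 on B1 to B4. It was higher after 17 cycles on array A and lower on array B (0.943 times), and its fitted change of 0.37 (SE 0.36) was the smallest of the bright members.

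**Figure D2:**
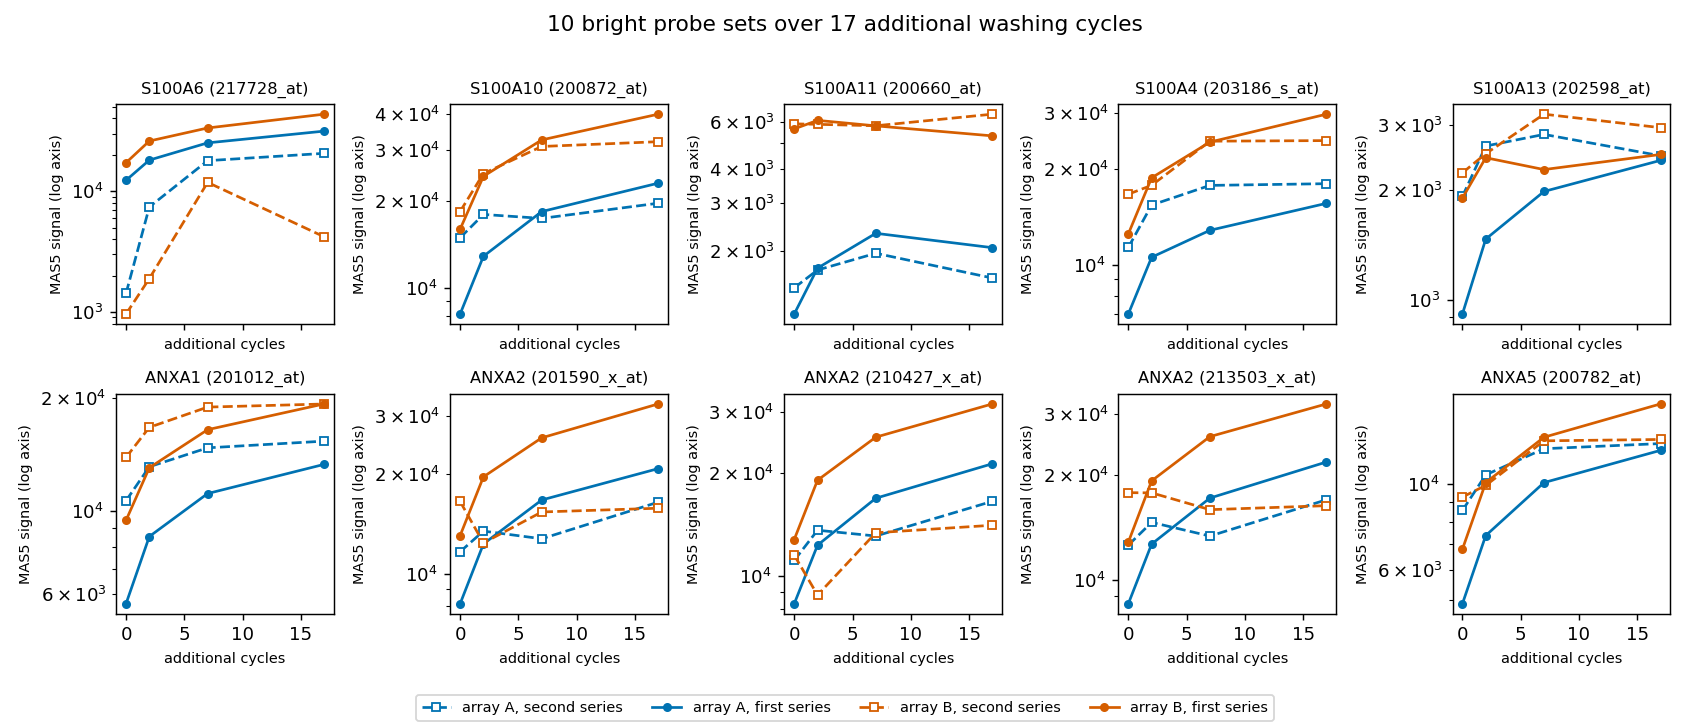
MAS5 signals (log axis, own range in each panel) of the 10 bright S100 and annexin probe sets against the additional washing cycles after staining, with open squares and dashed lines for the second series and filled circles and solid lines for the first series of arrays A and B. On the deposited scaling the first-series lines of S100A10, ANXA2, S100A4, ANXA1 and ANXA5 go up at every step, and those of the second series are flatter, whereas anchored on the 100 brightest probe sets 8 of 9 first-series changes lie below 0.

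In the second series the same 17 cycles gave smaller changes for the 9 bright probe sets, with log2 values of 0.12 to 0.61 and a median of 0.43. The median was -0.24 over all probe sets and 0.19 over the brightest 10%. Anchored on the 100 brightest, all 9 changes were below 0. None of the 13 was called in limma, as 0% of all probe sets were, and 4 of 13 were higher at an unadjusted p under 0.05 against 2.55% of all. With the variance trend the same 4 probe sets, those of S100A10, S100A4, ANXA1 and ANXA5, were called higher, against 2.38% of all probe sets.

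S100A10 gave 14902, 17947, 17393 and 19630 on A5 to A8 and 18372, 24869, 30863 and 32065 on B5 to B8. S100A4 gave 11342, 15415, 17771 and 17993 on A5 to A8 and 16674, 17782, 24473 and 24578 on B5 to B8. ANXA1 gave 10628, 13095, 14708 and 15327 on A5 to A8 and 13870, 16683, 18895 and 19257 on B5 to B8. In S100A4 and ANXA1 the last step added the least on both arrays. ANXA5 gave 8554, 10576, 12361 and 12747 on A5 to A8 and 9267, 9931, 12958 and 13062 on B5 to B8. S100A13 gave 1919, 2632, 2832 and 2476 on A5 to A8 and 2225, 2508, 3215 and 2954 on B5 to B8, highest at the third step on both arrays.

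Whether washing acted differently in the series was tested as an interaction. The change over 17 cycles was smaller in the second series in all 9 bright probe sets, by 0.25 (S100A11) to 1.18 (ANXA2, 213503_x_at) on the log2 scale. The median difference was -0.75, against 0.12 over all probe sets and -0.24 over the brightest 10%. Only 20.9% of the brightest 10% had a difference above 0, so this direction was common among bright probe sets. On anchored scans 1 of the 9 differences, that of S100A11, was above 0, and after quantile normalization 2 were, those of S100A11 and S100A4. In limma none of the 13 passed (adjusted p of 0.579 to 0.998), as 0% of all probe sets did, and 6 of 13 lay lower with an unadjusted p below 0.05 against 2.58% of all. With the variance trend 7 of 13 were called lower, against 1.38% of all probe sets: ANXA1, ANXA5, S100A10, S100A4 and the 3 of ANXA2.

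Re-labelling was tested as second over first series in 9 pairs of the same array and step. S100A6 is not read from this fit, which holds the scans it was selected on. None of the 13 probe sets of the other members was called in limma, where 0.294% of all probe sets were called higher and 0.541% lower. With an unadjusted p below 0.05, 4 of 13 lay above 0 and none below, against 8.34% and 11.3% of all. The 9 bright probe sets had log2 changes of -0.40 to 0.38 with a median of 0.093, against -0.022 over all probe sets and 0.057 over the brightest 10%. On anchored scans all 9 were above 0, and without array A 7 of the 9 were below 0. The anchor set was picked as the brightest on C1, a first-series scan. Its median log2 change ranged from -0.679 (B8 over B4) to 0.198 (A5 over A1). Where that change is negative, anchoring itself raises the other probe sets, and 20.1% of all were called higher on anchored scans.

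ANXA1 had the highest of these changes, 0.38 (SE 0.12, higher in 8 of 9 pairs, adjusted p = 0.144 in limma). Of the 13 it was the only one called with the variance trend (adjusted p = 0.0308), where 1.53% of all probe sets were called higher. These fits count repeated scans of 3 arrays as pairs. With the array as the unit, the 9 bright probe sets had adjusted p of 0.824 or more in limma. In that fit 0% of all probe sets were called. The ANXA1 ratio was 1.88, 1.54, 1.32 and 1.15 at the 4 steps of array A, 1.47, 1.28, 1.15 and 0.999 on array B and 1.11 on array C. The excess of the second series was thus smaller at each further step on both arrays. This course was not particular to ANXA1. The median log2 change over the brightest 10% was 0.363, 0.154, 0.043 and -0.026 at the 4 steps of array A. On array B this median was 0.064, 0.032, 0.029 and -0.025. S100A13 was next with 0.36 (SE 0.15, higher in 8 of 9 pairs, adjusted p = 0.231), and its ratio was 2.09 at the first step of array A and 0.857 on array C.

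**Figure D3:**
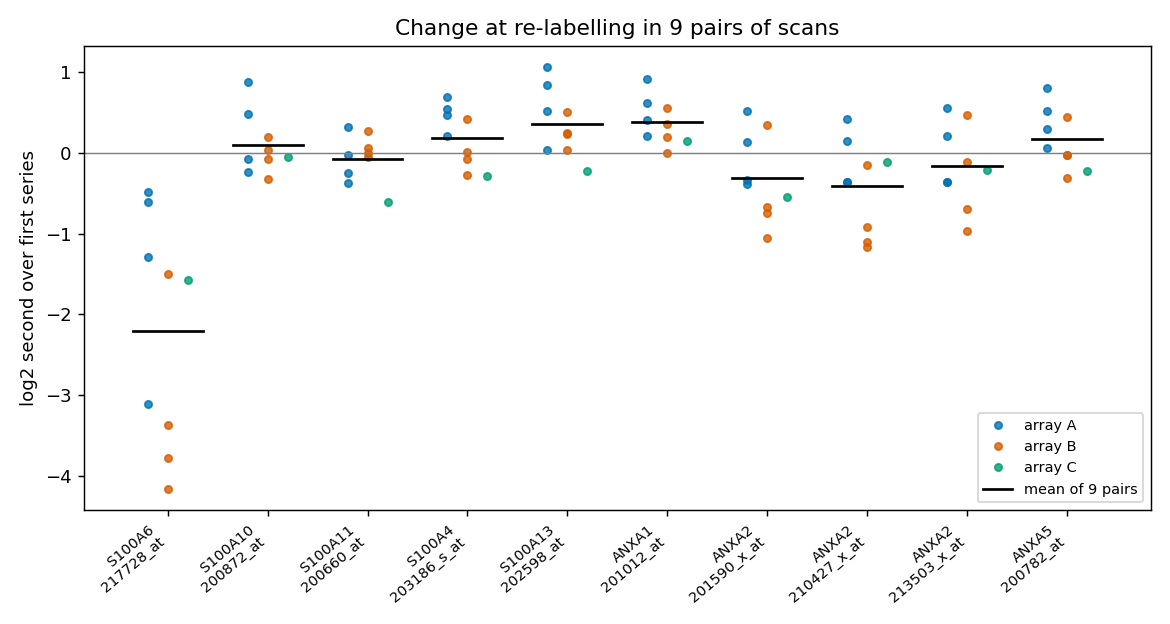
Log2 change of signal, second over first series, of the 10 bright probe sets in each of 9 pairs of scans, coloured by array, with a black line for the mean. All 9 points of S100A6 lie below 0 (mean -2.21, selected on 3 of these scans), whereas the means of the other 9 probe sets lie between -0.40 and 0.38. On anchored scans these 9 are all above 0, with an anchor picked on the first-series scan C1.

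S100A10 and ANXA2, which form one complex, had different ratios at the end of the second series. At 17 additional cycles S100A10 had a second-over-first ratio of 0.852 for array A and 0.803 for array B. For the 3 ANXA2 probe sets it was 0.778 to 0.791 on array A and 0.444 to 0.512 on array B. No test was run on this difference between the genes.

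The 3 bright ANXA2 probe sets, alike in the first series, differed in the second. On B5 to B8, 201590_x_at gave 16558, 12391, 15386 and 15794, 210427_x_at gave 11514, 8812, 13368 and 14057, and 213503_x_at gave 17818, 17799, 15932 and 16356. The first 2 were lowest on B6, after 2 further cycles, and the third was level there (B6 over B5 of 0.999). From B4 to B5, across the staining, their ratios were 0.506, 0.364 and 0.557. On A5 to A8 they ran more alike, with last-over-first ratios of 1.41, 1.49 and 1.35. All 3 carry the suffix x, and the array also holds probe sets for pseudogenes of ANXA2, of which that of ANXA2P2 gave 1805 to 15948, so that signal from near-identical copies cannot be told apart. One further probe set is assigned to both ANXA2 and SNU13 and is no member (1360 to 3335).

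S100A11 was the bright member with the largest median difference between arrays A and B. Its probe set 200660_at gave 5313 to 6392 on the 8 scans of array B, 5378 and 3518 on C1 and C2, and 1164 to 2316 on the 8 scans of array A. No scan of array A reached the lowest value of array B or C. At the 8 matched steps B over A was 2.50 to 4.84, a median log2 difference of 1.80, while the median over the brightest 10% was 0.34 and over all probe sets -0.53. Only 1 other probe set of the brightest 10%, of the elongation factor gene EEF1D, had a lowest ratio at least as high as that of S100A11 (both 2.50 after rounding). At the same total of 2 cycles, given before staining on B1 and after it on A2, the ratio was 3.27. The arrays carry the same RNA, and the array cannot be told apart from its washing before staining.

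**Figure D4:**
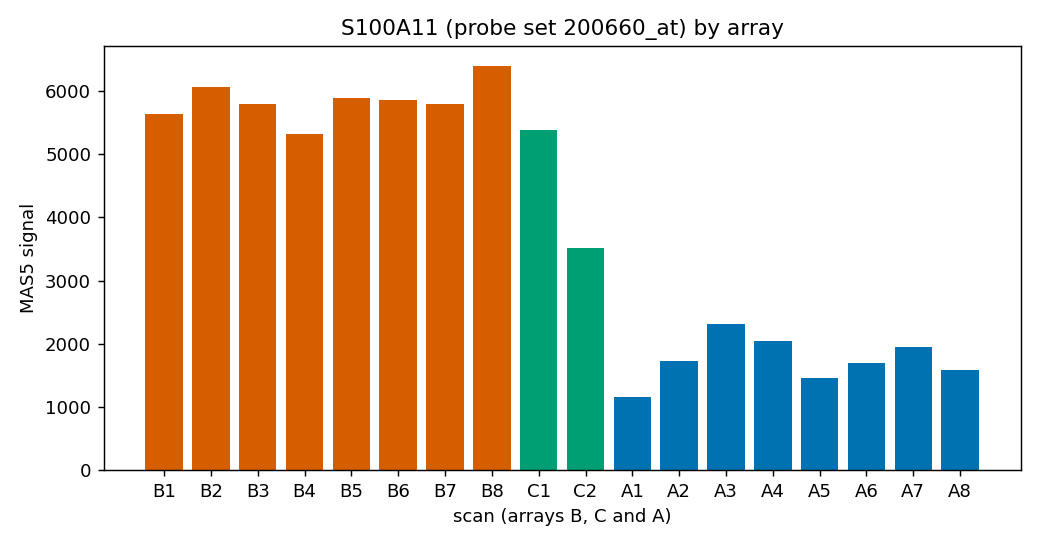
S100A11 signal (linear axis starting at 0) on the 8 scans of array B, the 2 of array C and the 8 of array A. Array B lies between 5313 and 6392, array C at 5378 and 3518, and array A between 1164 and 2316, in both series.

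In the other bright probe sets B over A had a median log2 difference of 0.81 for S100A10, 0.69 for S100A4, 0.32 to 0.57 for ANXA2, 0.46 for ANXA1, 0.25 for ANXA5, 0.21 for S100A13 and -0.078 for S100A6. It was above 0 at all 8 steps only for S100A10, S100A4, ANXA1 and S100A11 among the bright probe sets. S100A6 spanned both directions, with a ratio of 1.33 to 1.44 at the 4 steps of the first series and of 0.204 to 0.675 at those of the second. Of the dim probe sets, ANXA1 233011_at was lower on array B at all 8 steps, with ratios of 0.0433 to 0.824.

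The 5 dim probe sets did not follow the bright ones of the same genes. In the first series their fitted changes over 17 cycles were -1.05 to -0.070 on the log2 scale, all below 0, and none was called in limma. Arrays A and B went in opposite directions for ANXA2 1568126_at (0.967 and -3.07), S100A10 238909_at (-0.209 and 0.069) and S100A6 228923_at (0.037 and -0.216). S100A13 213481_at and ANXA1 233011_at were lower on both arrays. Of all probe sets, 30.5% had a change above 0. S100A6 by 228923_at gave 19.7 to 30.0 on A5 to A8 and 89.9 to 138 on A1 to A4, without overlap, but 65.7 to 116 on B5 to B8 and 83.1 to 143 on B1 to B4, which overlapped, and 113 on C2 against 91.2 on C1. Its bright probe set went up from A5 to A8 while this one stayed low. ANXA1 by 233011_at gave 6.2 to 142 over the 18 scans and ANXA2 by 1568126_at 5.3 to 82.9. S100A13 by 213481_at gave 48.8 to 101 on A5 to A8 and 133 to 294 on A1 to A4, without overlap, whereas S100A10 by 238909_at varied least, from 180 to 451. The median signals of the scans were 51.0 to 136.

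**Figure D5:**
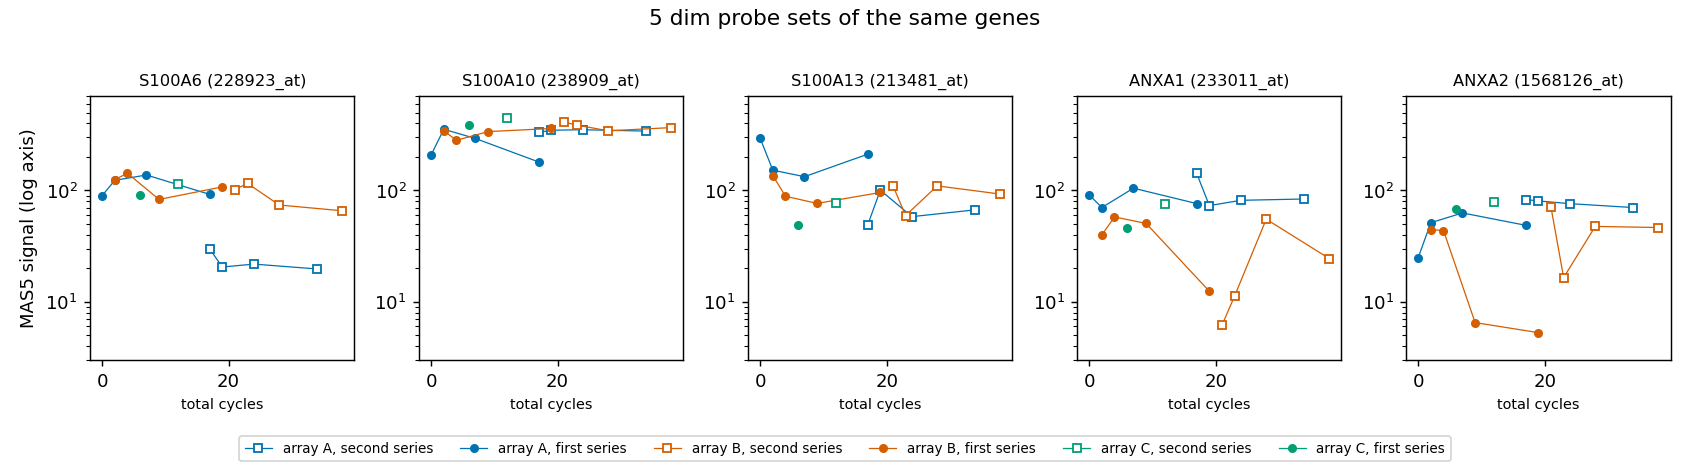
MAS5 signals (log axis) of the 5 dim probe sets against the total washing cycles, with open squares for the second and filled circles for the first series of arrays A, B and C. S100A6 (228923_at) lies at 19.7 to 30.0 on array A in the second series and at 89.9 to 138 in the first, and ANXA1 and ANXA2 scatter down to 6.2 and 5.3 on array B.

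Among the 9 bright probe sets other than that of S100A6, the correlation of log2 signals over 18 scans ranged from 0.297 to 0.960 in 36 pairs with a median of 0.749. The closest pair of different genes was S100A10 and S100A4 (r = 0.960), followed by S100A4 and ANXA1 (r = 0.935). S100A10 and the ANXA2 probe sets gave 0.671 to 0.863, and S100A11 and ANXA1 0.536. S100A6 gave -0.055 to 0.675 with the other 9, highest with ANXA2 210427_x_at. For each of the 9, none of the 5 genes with the closest signals was another member, although members were counted there.

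Other genes of both families, pseudogenes of ANXA2 included, had mostly dim probe sets: 6 of 26 reached the brightest 10% on C1. The brightest probe sets were those of ANXA2P2 (8997 on C1), S100A2 (8980), an S100 protein of epithelial cells, and ANXA7 (3131), a calcium-dependent fusion protein. Their 35 probe sets had a median log2 change of 0.083 over 17 cycles of the first series, against -0.45 over all. None was called in limma in any comparison, and in the first series 3 had an unadjusted p under 0.05 in either direction, against 17.4% of all probe sets. With the variance trend 4 of 35 were called higher in the first series (S100A2, S100A16, ANXA7 and ANXA2P2), against 3.57% of all probe sets. S100A2 had the largest of these changes, 1.07 (SE 0.076, adjusted p = 1.75e-06). In the second series 2 were called higher (S100A2 and ANXA7), against 2.38% of all, at re-labelling 1 was (ANXA7), against 1.53%, and in the difference between the series 1 was called lower (S100A2), against 1.38%.

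Of 15 genes for binding partners, the brightest probe sets were those of CACYBP (6172 on C1), which binds S100A6, SUGT1 (4762), a co-chaperone, and AHNAK (4079), a scaffold bound by S100A10 and ANXA2. Their 38 probe sets had a median log2 change of -0.15 in the first series. None was called in limma in any comparison, and in the first series 8 of 38 had an unadjusted p under 0.05, against 17.4% of all probe sets. With the variance trend 3 were called higher in the first series, against 3.57% of all, and these belonged to CACYBP (1.09), SUGT1 (1.08) and AHNAK (0.98). In the second series 2 were called higher (CACYBP and SUGT1), against 2.38%, at re-labelling 2 were (CACYBP and MYH9), against 1.53%, and in the difference 1 was called lower (SUGT1), against 1.38%.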

How the data were processed

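The deposited values are MAS5 signals, 1 for each probe set in each scan, which the authors computed from the intensities of the HG-U133 Plus 2.0 arrays. The version of MAS5 is not given in the sources used here. The scans had been scaled to a common trimmed mean before deposition, as checked from the values. No 2 scans were identical, all columns were mapped to a sample, and the number of arrays limits the precision. The annotation gives 1 symbol to 41097 probe sets, several to 1801 and none to 11777.

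All probe sets were fitted on log2 signals, with no offset and no filter, in limma 3.58.1 (R 4.3.3) with Benjamini-Hochberg adjusted p under 0.05 over 54675 probe sets. Washing was 17 against 0 additional cycles with the array as a block, re-labelling the second over the first series, blocked by pairs of scans taken from one physical array at one step. Their difference was an interaction. The fits were tested on simulated data. Summaries used Python 3.11.15, numpy 2.4.6, pandas 2.3.3 and matplotlib 3.10.9.

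Alternatives were median centring, quantile normalization, anchoring on the 100 brightest probe sets of C1, time as a line, no replicate block, an offset of 16, a fit restricted to the 27338 brightest probe sets, robust moderation with a variance trend, first and last scans only, the array as the unit, and fits without scans, pairs or arrays. Named are all member probe sets, the 5 genes most correlated with S100A6, and of each related list the 3 brightest and those called. The members and lists were chosen with earlier results of these data known. No sequence is given.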

Additional observations from a re-analysis of the deposited data

How the results depend on the processing

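The direction of washing for most bright members depended on the scaling. The 100 brightest probe sets, to which some of them belong, gained on the scan mean themselves. With these as the anchor, the first-series change of S100A10 stayed positive (0.0575). Anchored on these 100, the log2 changes of the first series became -0.99 (S100A11), -0.072 (ANXA5), -0.22 (ANXA1), -0.46 (S100A13), -0.15 (S100A4), -0.013, -0.027 and -0.027 (ANXA2 201590_x_at, 210427_x_at and 213503_x_at) and -0.022 (S100A6 without its selected scans). Those of the second series became -0.77 (S100A11), -0.35 (ANXA5), -0.29 (S100A10), -0.39 (ANXA1), -0.50 (S100A13), -0.27 (S100A4) and -0.67, -0.46 and -0.73 (ANXA2, same order). Re-labelling then gave 0.35 (S100A11) and 0.12, 0.022 and 0.26 (ANXA2), and the difference between the series 0.22 (S100A11). After quantile normalization the first series gave -0.21 (S100A11), -0.13 (ANXA1), -0.16 (S100A4), -0.020, -0.038 and -0.031 (ANXA2) and -0.0026 (S100A6), the second -0.18 (S100A11), -0.055 (ANXA5), -0.11 (ANXA1), -0.019 (S100A4) and -0.40, -0.16 and -0.46 (ANXA2), and the difference 0.043 (S100A11) and 0.11 (S100A4). Without array A re-labelling gave -0.027 (ANXA5), -0.042 (S100A10) and -0.042 (S100A4).

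Of the 13 probe sets other than S100A6, 0 were called under the main settings. In the first series 6 were called higher among the brighter 27338 probe sets (1.98% of all tested), 8 with the variance trend (3.57%), 7 with time as a line (1.1%), and 3 dim ones lower on anchored scans (54.6%). In the second series the counts were 4 higher with the variance trend (2.38%) and 1 lower on anchored scans (42.8%). For re-labelling they were 6 higher on anchored scans (20.1%) and 1 higher with the variance trend (1.53%), and for the difference 7 lower with the variance trend (1.38%). A fold of 2 in all 3 arrays at the first step, chosen after seeing the data, named 0. No member count changed when a scan or pair was left out (0 to 0 in each comparison). Directions changed with single scans for S100A11 in the first series (-0.021 to 0.75, lowest without A1) and in the difference (-0.63 to 0.14, highest without A1), for ANXA2 201590_x_at (-0.023 to 0.45, lowest without A5) and 213503_x_at (-0.046 to 0.35, below 0 without A5 or A8) in the second series, and for S100A10 at re-labelling (-0.0048 to 0.14, lowest without the pair A1 and A5).

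Without the replicate block, in which the arrays or pairs are not matched, 0 members were called either, and the re-labelling change of S100A6 without its selected scans was -1.76 (adjusted p = 0.421). Some fits without single scans or with the remaining scans only could not be fitted and gave no value. The change of S100A6 from B4 to B8, -3.37 on the log2 scale, was -5.75 on the log2 scale of ranks. The S100A11 difference of array B over array A, 1.80, was 2.53 over the scan median, 1.27 on anchored scans and 1.30 for ranks, alternatives chosen after seeing the data. Causes were not tested. With 2 arrays in the washing fits and 1 RNA sample, only large changes relative to the spread of repeated scans can pass.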
